A study of Mus musculus with 10 samples.

Results

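The annexins and their S100 partners were followed in the lumbar spinal cord as 10 genes, 7 annexins (Anxa1, Anxa2, Anxa3, Anxa4, Anxa5, Anxa6 and Anxa11) and 3 S100 genes (S100a6, S100a10 and S100a11), of 32506 genes counted. They were taken by gene symbol, and each of the 10 passed the filter on low counts that kept 16974 genes for testing. RNA-sequencing compared 5 non-transgenic wild type mice (WT) with 5 mice that overexpress SOD1G86R, a mutant superoxide dismutase, and are given as +/- by the labels. All were FVB females of 95 days, litter-matched, given ketamine and xylazine at sacrifice and perfused with PBS before the cord was taken. No other treatment is stated. There was 1 library per mouse, and the promoter that drives the transgene is not given in the sources used here.

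Annexins are cytosolic proteins that settle on phospholipid membranes when calcium rises. They take part in membrane repair, exocytosis, endosome traffic and the limits set on inflammation. Several of them work as a pair with a small dimeric calcium sensor of the S100 family, which bridges annexin molecules on facing membranes. The textbook pairs are Anxa2 with S100a10 (p11), Anxa1 with S100a11, and Anxa11 with S100a6 (calcyclin). In the spinal cord these genes are used by glia, vessels and invading leukocytes as well as by neurons, and mutations of ANXA11 cause some human cases of amyotrophic lateral sclerosis.

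Levels are given as CPM, a gene's share of the library's reads, after scaling with TMM, a factor that corrects for composition. A gene was called when the Benjamini-Hochberg adjusted p of edgeR's quasi-likelihood test over the 16974 genes was under 0.01. Total counts were 29333590 to 46003999 in WT and 31494723 to 37080445 in SOD1G86R mice. Sod1 had 127 to 210 CPM in WT and 3920 to 6420 CPM in SOD1G86R mice, so that every genotype label held. Markers of neurons and the lumbar Hox genes were present in all libraries. SOD1G86R replicate 4 stood apart. Its 8 sensory ganglion markers summed to 66.6 CPM against 2.86 to 4.53 CPM in the other 9 mice, with Scn10a, a sodium channel of sensory neurons, at 20.7 CPM there and at most 0.0651 CPM elsewhere. Its 8 microglial markers summed to 487 CPM, against 368 to 475 CPM in WT and 741 to 966 CPM in the other 4 SOD1G86R mice. The paper gives motor weakness in its SOD1G86R mice as mild to severe, and no strength value per mouse was used here. Sod1 in replicate 4, at 3920 CPM, was the lowest of its group, against 4820 to 6420 CPM in the other 4. The fold change of each of the 10 genes is therefore given with and without this mouse. Replicate 4 was set apart on these same data, so a result without it is a description and no separate support.

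Anxa2, the annexin of the cell surface that binds plasminogen and tissue plasminogen activator together with S100a10, was higher in each SOD1G86R mouse than in any WT mouse. In WT replicates 1 to 5 its level was 43.3, 40.8, 43.4, 41.4 and 46.1 CPM. In SOD1G86R replicates 1 to 5 it was 72.2, 65.8, 64.5, 63.9 and 61.9 CPM. The groups did not overlap, and SOD1G86R replicate 4 lay among its group. Group means were 43.0 ± 2.06 CPM in WT and 65.6 ± 3.92 CPM in SOD1G86R mice (SD, n = 5), a ratio of 1.53. The log2 fold change was 0.61 (SE 0.06, edgeR adjusted p = 7.47e-05), and 0.62 (SE 0.06, edgeR adjusted p = 1.53e-05) without replicate 4. Anxa2 lies at chr9:69453620-69491795 on the plus strand of GRCm38.

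S100a10, the partner that holds the Anxa2 dimer together and differs from its relatives in needing no calcium, had 28.1, 35.8, 32.4, 36.1 and 32.6 CPM in WT replicates 1 to 5. It had 45.2, 42.9, 50.6, 32.9 and 43.5 CPM in SOD1G86R replicates 1 to 5. All SOD1G86R mice but replicate 4 lay above the WT range, whereas replicate 4 lay inside it. The log2 fold change of 0.38 did not pass the test with all mice (SE 0.10, edgeR adjusted p = 0.0526). Without replicate 4 it was 0.46 and passed (SE 0.08, edgeR adjusted p = 0.0019). S100a10 lies at chr3:93555080-93564643 on the plus strand.

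The promoters of Anxa2 and S100a11 are shown because these members were higher in SOD1G86R mice, the latter by edgeR only without replicate 4, and because both hold the AP-1 letters. The promoters of S100a6 and Anxa1, a member that was higher without replicate 4 and a member that was not, are shown beside them. The sequences are from RefSeq (GRCm38.p6) and cover the 250 bases before the start that RefSeq annotates, read 5′ to 3′ on the gene's strand. Gene positions in this text are from GENCODE, whose outer ends differ from these starts. By those positions the window of Anxa1 lies inside the gene. The windows of Anxa2, S100a11 and S100a6 likewise end past the first base of theirs. RefSeq entries were matched for 7 of the 10 members, not for Anxa3, Anxa6 and S100a10. Capitals mark the letters of AP-1 (TGANTCA), the TATA box (TATAAA) and the GC box (GGGCGG), searched on both strands.
Anxa2: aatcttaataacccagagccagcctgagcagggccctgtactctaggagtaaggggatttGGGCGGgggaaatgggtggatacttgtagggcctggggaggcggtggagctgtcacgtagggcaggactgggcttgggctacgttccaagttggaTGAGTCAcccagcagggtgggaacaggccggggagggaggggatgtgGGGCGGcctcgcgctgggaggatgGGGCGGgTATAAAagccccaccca
S100a11: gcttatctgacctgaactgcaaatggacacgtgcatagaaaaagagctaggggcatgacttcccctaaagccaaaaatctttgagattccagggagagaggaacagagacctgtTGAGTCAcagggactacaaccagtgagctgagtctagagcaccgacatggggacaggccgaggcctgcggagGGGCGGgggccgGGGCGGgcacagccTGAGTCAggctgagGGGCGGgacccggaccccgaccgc
S100a6: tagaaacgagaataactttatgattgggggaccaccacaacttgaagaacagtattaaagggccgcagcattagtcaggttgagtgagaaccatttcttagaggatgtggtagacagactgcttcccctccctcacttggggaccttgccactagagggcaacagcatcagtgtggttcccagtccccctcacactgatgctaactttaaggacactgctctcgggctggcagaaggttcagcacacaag
Anxa1: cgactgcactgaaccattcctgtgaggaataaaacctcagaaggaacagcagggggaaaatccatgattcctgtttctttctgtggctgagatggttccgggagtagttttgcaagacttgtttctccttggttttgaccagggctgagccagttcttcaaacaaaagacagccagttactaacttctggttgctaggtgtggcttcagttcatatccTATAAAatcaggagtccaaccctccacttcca

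In the window of Anxa2 (chr9:69453433-69453682, plus strand) the AP-1 letters began 95 bases before the start and the TATA letters 17 bases before it, with 3 GC boxes. The window of S100a11 (chr3:93520246-93520495, plus strand) held the AP-1 letters 2 times, first 136 bases before the start, and 3 GC boxes. That of Anxa1 (chr19:20390672-20390921, minus strand) held the TATA letters 32 bases before the start, and that of S100a6 (chr3:90612644-90612893, plus strand) held none of these. AP-1 letters were in the promoters of 2 of the 7 matched members and in 6.75% of 32851 RefSeq promoters of the same length. TATA letters were in 2 of the 7 and in 12.4% of all, and GC boxes in 3 of the 7 and in 32.7% of all. The letters of STAT factors (TTCNNNGAA, 7.02% of all), of an interferon element (GAAANNGAA, 7.13% of all) and of the myeloid factor PU.1 (GAGGAAG, 10.6% of all) were in 0 of the 7. A match describes the letters of the window and not a bound site.

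**Figure D1:**
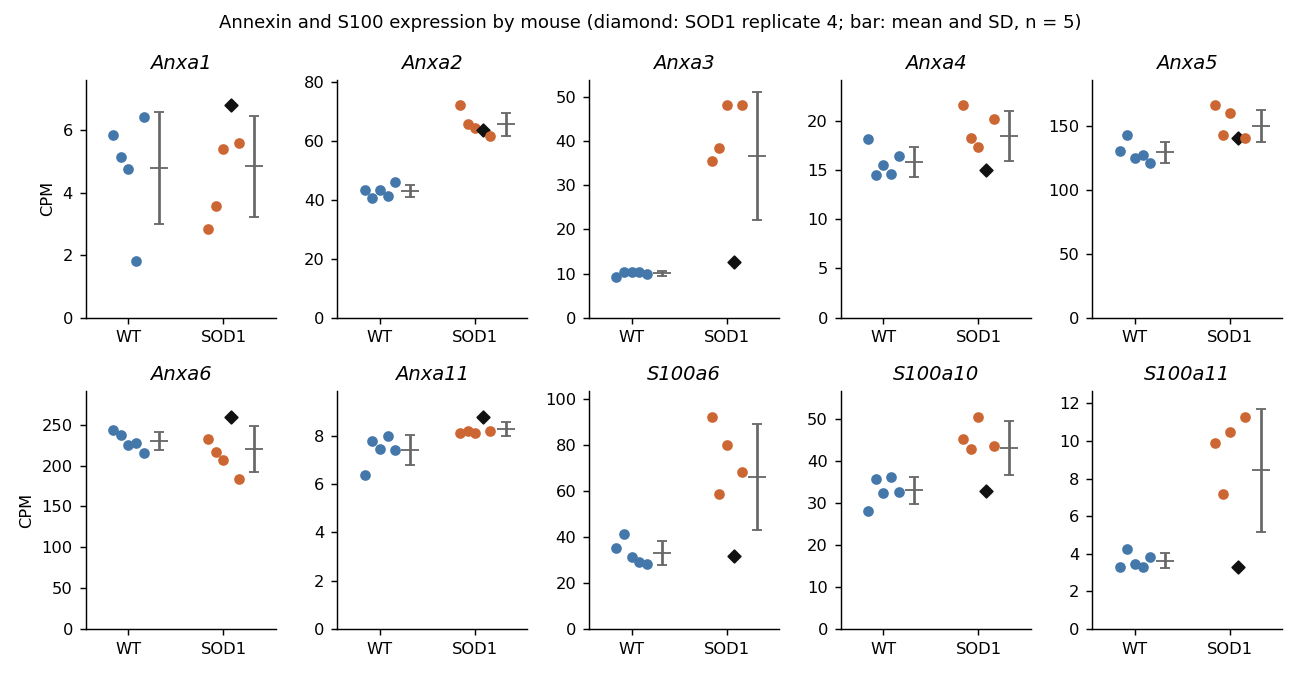
Level of each of the 10 genes in CPM (vertical axis, from 0) in the 5 WT mice (blue) and the 5 SOD1G86R mice (orange, with replicate 4 as a black diamond), with the mean and SD of each group. Anxa2 was at 61.9 to 72.2 CPM in SOD1G86R mice against 40.8 to 46.1 CPM in WT, whereas for Anxa3, S100a6, S100a10 and S100a11 the diamond lies apart from the other 4 SOD1G86R mice.

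S100a11, which binds Anxa1 and helps to repair torn membranes in cultured human cells, had 3.31, 4.26, 3.46, 3.32 and 3.82 CPM in WT replicates 1 to 5. In SOD1G86R replicates 1 to 5 it had 9.91, 7.16, 10.5, 3.28 and 11.3 CPM. The 4 other SOD1G86R mice lay above every WT mouse, and replicate 4 lay just under the lowest WT mouse. With all mice the log2 fold change was 1.22 and missed the threshold (SE 0.27, edgeR adjusted p = 0.0278), with means of 3.63 ± 0.405 CPM in WT and 8.44 ± 3.29 CPM in SOD1G86R mice (SD, n = 5). Without replicate 4 it was 1.42 and passed (SE 0.14, edgeR adjusted p = 1.32e-05). S100a11 lies at chr3:93520488-93526287 on the plus strand, and its processed pseudogene S100a11-ps had 0 counts in every library.

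Anxa1, an effector of glucocorticoids that acts on formyl peptide receptors and is abundant in neutrophils, varied as much within each genotype as between them. Its level was 5.86, 5.15, 4.77, 1.80 and 6.42 CPM in WT replicates 1 to 5. It was 2.84, 3.57, 5.41, 6.81 and 5.61 CPM in SOD1G86R replicates 1 to 5. The lowest mouse was WT replicate 4 and the highest was SOD1G86R replicate 4, so that the groups overlapped over most of their range. With all mice the log2 fold change was 0.01 (SE 0.32, edgeR adjusted p = 0.991) and -0.14 without SOD1G86R replicate 4 (SE 0.33, edgeR adjusted p = 0.867).

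Ngp and Camp, granule genes of neutrophils, had their lowest and highest levels in the same mice as Anxa1. A list of 7 neutrophil and monocyte markers, to which these genes gave most, summed to 32.4, 24.6, 24.8, 5.64 and 30.2 CPM in WT replicates 1 to 5, and to 14.7, 7.61, 21.1, 34.3 and 34.0 CPM in SOD1G86R replicates 1 to 5. The lowest sum was again in WT replicate 4 and the highest in SOD1G86R replicate 4. Of the list, 0 of the 6 members tested were called in either direction, and Ly6g, which defines neutrophils, was at 0 in WT replicate 4 and at most 0.649 CPM elsewhere. S100a8, which neutrophils store in bulk, had the same extremes, with 3.50 CPM in WT replicate 4 and 28.3 CPM in SOD1G86R replicate 4. The monocyte markers did not have both extremes. Ccr2 was at 0.746 CPM in SOD1G86R replicate 4, the lowest of its group. Ly6c2 was lowest of all mice in WT replicate 4, at 1.05 CPM, but highest in SOD1G86R replicate 1, at 2.90 CPM. The part of blood cells in the level of Anxa1 was not tested. Anxa1 lies at chr19:20373428-20390944 on the minus strand. The lincRNA gene 1500015L24Rik overlaps it on the opposite strand but shares 0 bases of exon with it, and it had 11 to 30 counts per library.

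S100a6, a calcium sensor of dividing and reactive cells that binds Anxa11, had 35.1, 41.4, 31.1, 29.3 and 28.3 CPM in WT replicates 1 to 5. In SOD1G86R replicates 1 to 5 it had 92.3, 58.8, 79.8, 31.7 and 68.0 CPM. Only replicate 4 overlapped the WT mice. A log2 fold change of 1.0 was fitted with all mice (SE 0.26, edgeR adjusted p = 0.0621) and of 1.18 without replicate 4 (SE 0.14, edgeR adjusted p = 0.000177), of which the second passed the test. S100a6 lies at chr3:90612882-90624181 on the plus strand.

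Anxa11, which tethers RNA granules to lysosomes in axons, was among the lower members at 6.38, 7.78, 7.44, 7.97 and 7.39 CPM in WT replicates 1 to 5. In SOD1G86R replicates 1 to 5 it was at 8.11, 8.20, 8.12, 8.79 and 8.19 CPM. The groups did not overlap, but the gap between the highest WT and the lowest SOD1G86R mouse was small beside the spread of the WT mice. The means were 7.39 ± 0.617 CPM (SD, n = 5) and 8.28 ± 0.287 CPM (SD, n = 5). Its log2 fold change of 0.16 did not pass the test (SE 0.08, edgeR adjusted p = 0.326), nor did the 0.14 without replicate 4 (SE 0.08, edgeR adjusted p = 0.406). The gene lies at chr14:25842156-25886804 on the plus strand, and 2.73% of its exon bases are also exon of the antisense gene Anxa11os, for which no row was used here. With a strand setting not given in the sources used here, reads of both genes over these bases cannot be told apart, which also holds for 2.63% of the exon bases of Anxa2 (Gm16144) and 1.61% of those of Anxa4 (Gm44036).

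Anxa3, an annexin without a settled S100 partner that is found in granules of neutrophils and in myeloid cells, showed the largest fold change of the 10 genes. It had 9.14, 10.3, 10.4, 10.3 and 9.95 CPM in WT replicates 1 to 5. In SOD1G86R replicates 1 to 5 it had 35.6, 38.4, 48.2, 12.7 and 48.2 CPM. The groups did not overlap, since replicate 4 was also above the highest WT mouse, but it lay far from its group. The ratio of means was 3.66, with 10 ± 0.512 CPM in WT and 36.6 ± 14.5 CPM in SOD1G86R mice (SD, n = 5). The log2 fold change of 1.87 just missed the threshold with all mice (SE 0.31, edgeR adjusted p = 0.0119). It was 2.09 and passed without replicate 4 (SE 0.10, edgeR adjusted p = 6e-08). Anxa3 lies at chr5:96793339-96845966 on the plus strand, where 3.07% of its exon bases are shared with Gm42603, a gene with 0 to 3 counts per library.

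**Figure D2:**
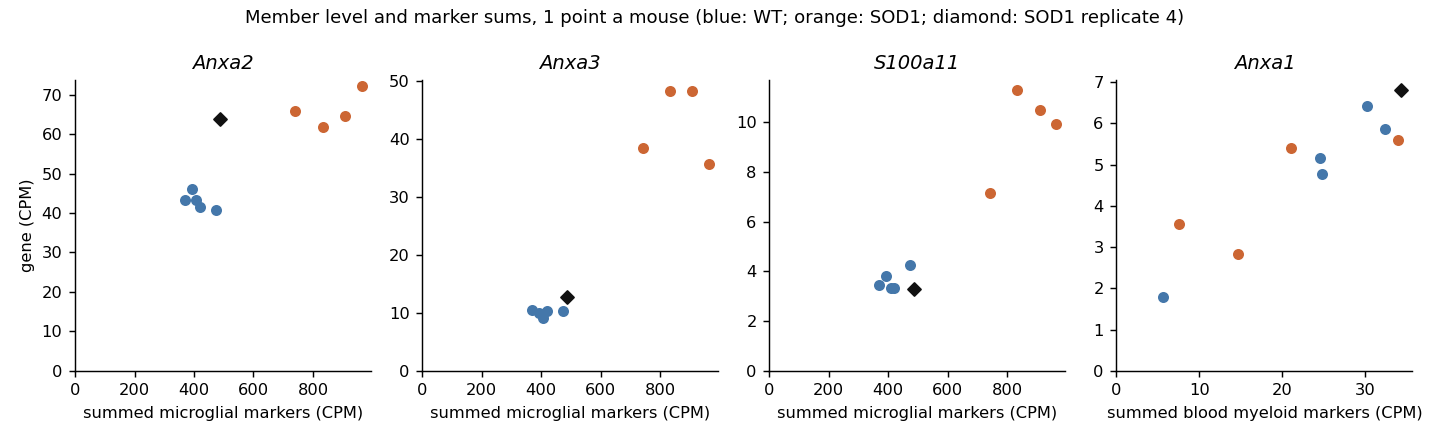
Level of Anxa2, Anxa3 and S100a11 (vertical axes, CPM) against the summed level of 8 microglial markers, and of Anxa1 against 7 blood myeloid markers (horizontal axes, CPM), with 1 point per mouse. SOD1G86R replicate 4 (diamond), at 487 CPM of microglial markers, lies beside the WT mice for Anxa3 at 12.7 CPM and S100a11 at 3.28 CPM but among the SOD1G86R mice for Anxa2 at 63.9 CPM.

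Markers of microglia moved with Anxa3, S100a6, S100a10 and S100a11. All 8 markers of the list had a positive log2 fold change, with a median of 0.96. Over all genes tested 47.7% were positive, with a median of -0.01. Among the 8, 1 was called higher, the fractalkine receptor gene Cx3cr1, where 0.866% of all genes were. Aif1, which defines microglia, was at 16.6, 12.2, 18.4, 6.39 and 13 CPM in SOD1G86R replicates 1 to 5, against 5.28 to 7.05 CPM in WT, so that its replicate 4 lay within the WT range as did that of S100a6 and S100a10. Of the 8 astrocyte markers, 0 were called by edgeR and 4 were higher at an unadjusted p under 0.05, against 10.8% of all genes tested. Gfap, the filament gene of reactive astrocytes, was at 6070, 4440, 4790, 2420 and 4760 CPM in SOD1G86R replicates 1 to 5 against 2230 to 3080 CPM in WT, with replicate 4 in the WT range. The list as a whole did not follow this order, since Slc1a3, Gja1 and Aldoc had log2 fold changes of -0.02 to 0.03 and Slc1a2 was highest of all mice in replicate 4, at 2470 CPM. More cells of a type and more RNA per cell cannot be told apart in bulk tissue. The part of microglia or astrocytes in the levels of these 4 genes was not tested. Anxa2 parted from this order, since its level in replicate 4 was within the range of the other SOD1G86R mice. That mouse also had the 66.6 CPM of summed sensory ganglion markers. The part of ganglion RNA in its Anxa2 level was not tested.

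Anxa4, Anxa5 and Anxa6 did not pass the test with all mice or without replicate 4. Anxa4, an annexin that gathers at internal membranes, had 14.5 to 18.2 CPM in WT (median 15.5 CPM in replicate 3) and 15.0 to 21.6 CPM in SOD1G86R mice, with a log2 fold change of 0.22 (SE 0.10, edgeR adjusted p = 0.272). Without replicate 4 its log2 fold change was 0.29 (SE 0.09, edgeR adjusted p = 0.0729). Anxa5, which coats phosphatidylserine exposed on dying cells, had 130, 143, 125, 127 and 121 CPM in WT and 166, 143, 160, 140 and 140 CPM in SOD1G86R replicates 1 to 5. The groups overlapped through WT replicate 2, which lay within the SOD1G86R range. Its log2 fold change was 0.21 (SE 0.06, edgeR adjusted p = 0.089), and 0.23 without replicate 4 (SE 0.07, edgeR adjusted p = 0.0479).

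Anxa6, an annexin with a doubled core that is prominent in neurons, had 243, 238, 225, 228 and 216 CPM in WT and 233, 217, 207, 260 and 184 CPM in SOD1G86R replicates 1 to 5. It was the member with a negative log2 fold change, -0.06 (SE 0.08, edgeR adjusted p = 0.74), or -0.13 without replicate 4 (SE 0.07, edgeR adjusted p = 0.313). Replicate 4 was the highest of all mice for this gene, and the summed neuronal markers of that mouse were also the highest, at 4970 CPM against 4100 to 4400 CPM in the other SOD1G86R mice and 4270 to 4610 CPM in WT. Anxa4 lies at chr6:86736840-86793584, Anxa5 at chr3:36448923-36475894 and Anxa6 at chr11:54979108-55033445, all on the minus strand.

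**Figure D3:**
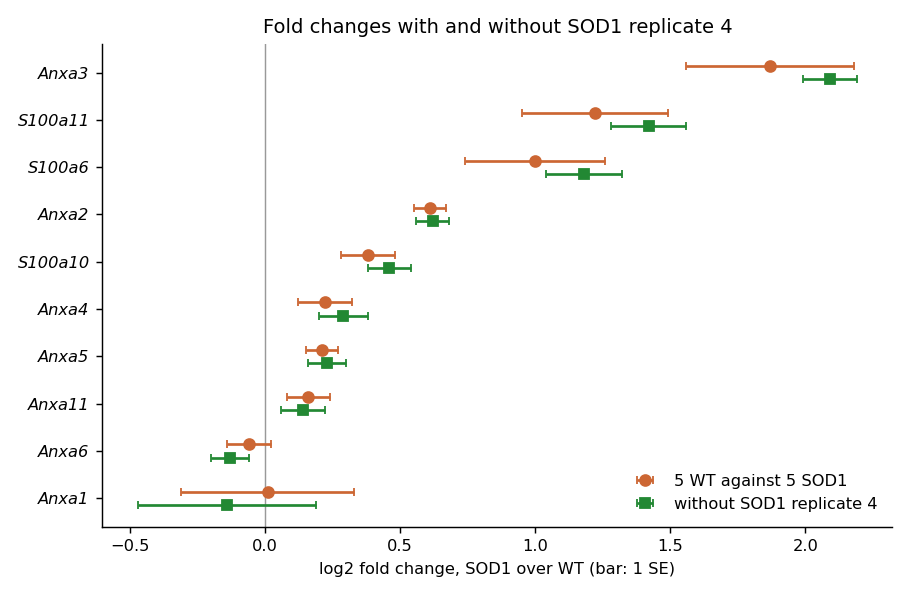
Log2 fold change of SOD1G86R over WT (horizontal axis, bars 1 SE) for the 10 genes with all mice (circles) and without SOD1G86R replicate 4 (squares). The value of Anxa2 was 0.61 and 0.62, that of Anxa3 1.87 with an SE of 0.31 and 2.09 with an SE of 0.10.

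Over the 10 genes, 1 was called higher (Anxa2), where 0.866% of all genes tested were called higher, and 0 were called lower, where 0.253% of all were. At an unadjusted p under 0.05 in edgeR, 7 were higher, against 10.8% of all genes, and 0 were lower, against 6.33% of all genes. DESeq2 and limma voom also called 0 lower. The median log2 fold change was 0.30 and 9 of 10 were positive, where the median of all genes was -0.01 and 47.7% were positive. All SOD1G86R mice were above all WT mice for 3 of the 10 (Anxa2, Anxa3 and Anxa11), as for 3.09% of all genes, and below them for 0, as for 1.84% of all genes.

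Without replicate 4, 5 of the 10 were called higher (Anxa2, Anxa3, S100a6, S100a10 and S100a11), where 4.55% of 17184 genes were. That mouse had been set apart in part by its low microglial markers, with which Anxa3, S100a6, S100a10 and S100a11 moved. More calls of these genes without it are thus no independent result. The 4 SOD1G86R mice left were above all WT mice for 6 of the 10, the same 5 genes and Anxa11, where 7.52% of the genes were. With all mice, DESeq2 called 4 higher (Anxa2, Anxa3, S100a6 and S100a11), against 3.82% of 19149 genes, and limma voom called Anxa2 alone, against 0.171% of all genes. S100a10 had a DESeq2 adjusted p of 0.011.

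**Figure D4:**
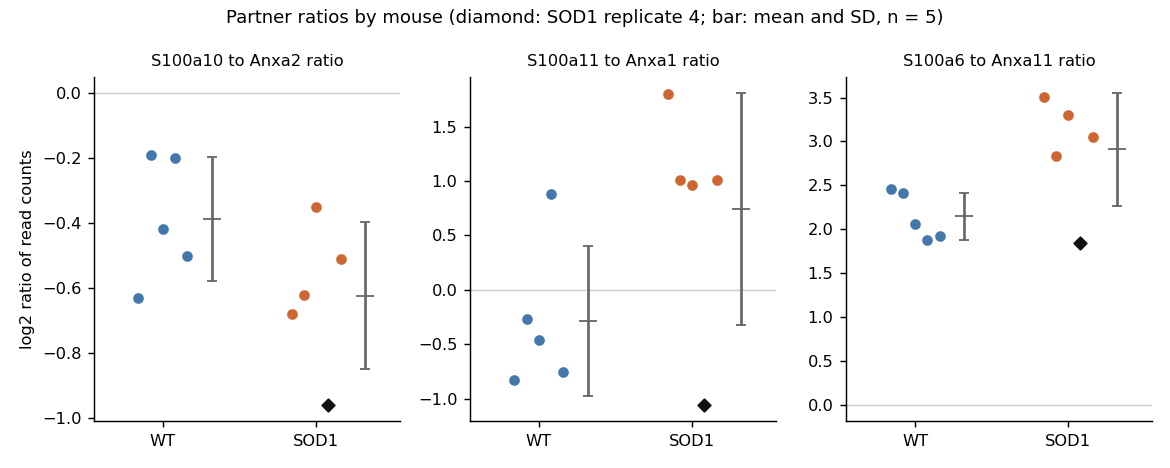
Log2 ratio of the read counts of each S100 gene to those of its annexin in every mouse (vertical axis), with the mean and SD of each group, and 0 marking equal counts where it falls in range. SOD1G86R replicate 4 (diamond) has the lowest ratio of its group in each panel, -0.96, -1.06 and 1.85.

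Whether the partners of a pair shifted against each other was asked with the log2 ratio of their counts within a library, which needs no scaling between libraries. For S100a10 to Anxa2 the ratio was -0.39 ± 0.19 (SD, n = 5) in WT and -0.62 ± 0.23 (SD, n = 5) in SOD1G86R mice. The difference of -0.24 did not pass (exact permutation test, two-sided, p = 0.127, adjusted over 3 pairs p = 0.143). The S100a10 count was thus 0.648 to 0.878 times that of Anxa2 in WT and 0.515 to 0.785 times in SOD1G86R mice.

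For S100a6 to Anxa11 the ratio was 2.15 ± 0.27 (SD, n = 5) in WT and 2.91 ± 0.64 (SD, n = 5) in SOD1G86R mice, a difference of 0.76 (exact permutation test, two-sided, p = 0.0556, adjusted p = 0.143). For S100a11 to Anxa1 it was -0.29 ± 0.69 (SD, n = 5) and 0.75 ± 1.07 (SD, n = 5), a difference of 1.03 (exact permutation test, two-sided, p = 0.143, adjusted p = 0.143). Neither passed. Without SOD1G86R replicate 4 the differences were 1.03 for S100a6 to Anxa11 (exact permutation test, unadjusted p = 0.00794, the smallest that 5 against 4 mice can give) and 1.48 for S100a11 to Anxa1 (exact permutation test, unadjusted p = 0.0159). Without WT replicate 4, the mouse with little Anxa1, the latter was 1.32 (exact permutation test, unadjusted p = 0.0476). That of S100a10 to Anxa2 was -0.15 without replicate 4 (exact permutation test, unadjusted p = 0.246).

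**Figure D5:**
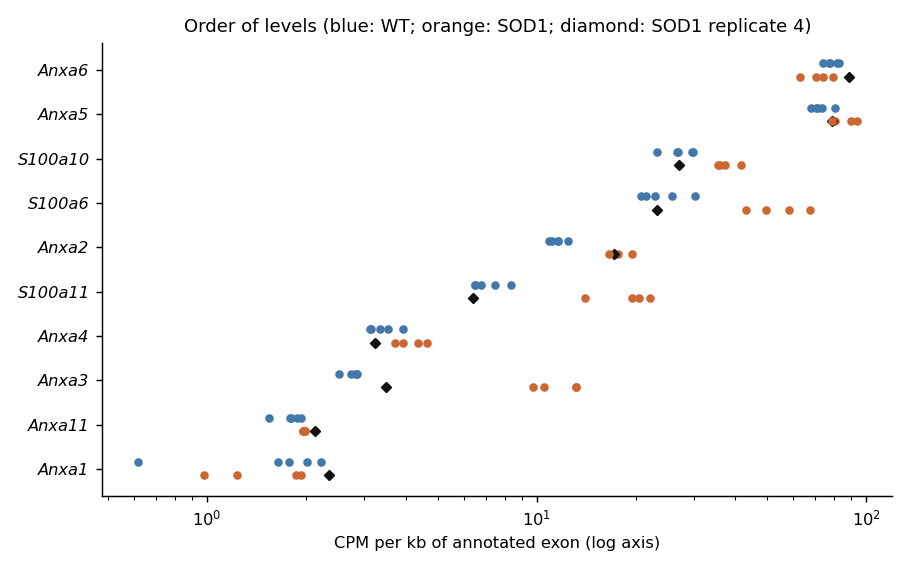
Level of each gene per kb of annotated exon (horizontal log axis, CPM per kb) in WT (blue) and SOD1G86R mice (orange, replicate 4 as a diamond), ordered by the WT mean. Anxa6 and Anxa5 lead with WT means of 78.5 and 72.7 CPM per kb, in the reverse order by mean in SOD1G86R mice, and Anxa1 is last with 1.65 CPM per kb.

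To set the genes against each other, levels were divided by the length of annotated exon. This length pools the exons of all annotated transcripts of a gene, 1 for S100a11 and 9 for Anxa3. The order therefore depends in part on the annotation. In WT mice Anxa6 stood at 78.5 ± 3.65 CPM per kb (SD, n = 5) and Anxa5 at 72.7 ± 4.71 CPM per kb (SD, n = 5), and their ranges overlapped. S100a10 at 27.2 ± 2.67 and S100a6 at 24.2 ± 3.91 CPM per kb (SD, n = 5) followed, again with overlap. Below them came Anxa2 at 11.5 ± 0.557, S100a11 at 7.11 ± 0.795, Anxa4 at 3.41 ± 0.329 and Anxa3 at 2.75 ± 0.143 CPM per kb (SD, n = 5), each apart from its neighbours in this order. Anxa11 at 1.79 ± 0.149 and Anxa1 at 1.65 ± 0.616 CPM per kb (SD, n = 5) overlapped at the end. In SOD1G86R mice Anxa5, at 84.3 ± 6.92 CPM per kb (SD, n = 5), had a higher mean than Anxa6, at 75.2 ± 9.72 CPM per kb (SD, n = 5), with overlapping ranges. Anxa3, at 10.1 ± 3.99 CPM per kb (SD, n = 5), had a higher mean than Anxa4, at 3.98 ± 0.551 CPM per kb (SD, n = 5), with overlap through replicate 4. S100a6, at 48.4 ± 16.8 CPM per kb (SD, n = 5), had a higher mean than S100a10, at 35.5 ± 5.30 CPM per kb (SD, n = 5), and their ranges overlapped.

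The other genes of both families did not pass edgeR's test, so that 0 of 12 were called. Over all genes tested 0.866% were called higher and 0.253% lower. Of 5 other annexins 2 had enough counts, Anxa7 with a log2 fold change of 0.05 and Anxa9 with -0.50 (edgeR unadjusted p under 0.05 for Anxa9 alone). Of 14 other genes with S100 names 10 had enough counts. With edgeR, 2 of these were higher and 1 lower at an unadjusted p under 0.05, against 10.8% and 6.33% of all genes tested. DESeq2 called S100a4 alone, where it called 3.82% of all genes higher, and limma voom called 0 genes of both families. S100a4, a member of mesenchymal cells and leukocytes, had 0.577 to 1.46 CPM in WT and 3.25, 3.03, 3.31, 0.746 and 2.15 CPM in SOD1G86R replicates 1 to 5. Its log2 fold change was 1.44 (SE 0.36, edgeR adjusted p = 0.042), and 1.67 without replicate 4 (SE 0.23, edgeR adjusted p = 0.000304), which passed. S100a3 had 0.90 (1.06 without replicate 4), S100a13 0.16, S100a1 0.12, S100a16 0.08, S100a7a 0.04 and S100pbp, an S100P binding protein, 0.02 on the log2 scale of fold change. S100b, the classic astrocyte and oligodendrocyte member, had -0.20, while S100a8 had -0.13 and S100a9 -0.20 (-0.51 and -0.57 without replicate 4). Anxa8, Anxa10, Anxa13, S100a5, S100a14, S100g and S100z had too few counts for the test.

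The genes that work with Anxa2 and S100a10 comprised the plasminogen system, the scaffold Ahnak and the channels and receptors that S100a10 carries to the surface. Of 12 listed, 11 were tested and 0 were called by edgeR, with a median log2 fold change of 0.16 against -0.01 over all genes. At an unadjusted p under 0.05 in edgeR there were 5 higher and 0 lower, against 10.8% and 6.33% of all genes tested. Plau, the urokinase gene, had 2.31 to 3.4 CPM in WT and 13, 8.59, 11.5, 3.44 and 7.07 CPM in SOD1G86R replicates 1 to 5, with replicate 4 beside the WT mice. Its log2 fold change was 1.60 (SE 0.30, edgeR adjusted p = 0.0146), and 1.80 without replicate 4 (SE 0.18, edgeR adjusted p = 2.65e-05). Its receptor gene Plaur, at 1.17 (SE 0.31, edgeR adjusted p = 0.0521), and the protease gene Ctsb, at 0.45 (SE 0.10, edgeR adjusted p = 0.025), likewise passed edgeR's test only without replicate 4 (edgeR adjusted p = 0.00153 and 0.000136). The channel and receptor genes Asic1, Htr1b, Htr4, Kcnk3 and Trpv6 had log2 fold changes of -0.24 to 0.06. Of the receptors and binders of Anxa1, Anxa11 and S100a6, 5 of 6 were tested and 0 were called, with 0 at an unadjusted p under 0.05 and a median of -0.06. With all mice DESeq2 called 3 of the Anxa2 and S100a10 list (Plau, Plaur and Ctsb) and 0 of the other. It called 3.82% of all genes higher, and limma voom called 0 of both lists. Genes of these lists that were not called were picked for naming after their values were seen.

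Of 15 genes of membrane repair, where annexins cap a tear together with dysferlin, calpains and ESCRT proteins, all were tested. With all mice 1 was called higher and 0 lower, where 0.866% and 0.253% of all genes tested were. The median log2 fold change was 0.04, against -0.01 over all genes. At an unadjusted p under 0.05 in edgeR there were 5 higher and 0 lower, against 10.8% and 6.33% of all genes. Without replicate 4, 3 were called higher, where 4.55% of all genes were. DESeq2 with all mice called the same 3 genes, where it called 3.82% of all genes higher. The gene called with all mice was Ehd2, an ATPase that shapes caveolae. It had 10.5, 8.83, 10.7, 9.55 and 10.9 CPM in WT and 18.2, 18.4, 17.2, 12.8 and 17.7 CPM in SOD1G86R replicates 1 to 5, without overlap. Its log2 fold change was 0.74 (SE 0.10, edgeR adjusted p = 0.00311), and 0.82 without replicate 4 (SE 0.08, edgeR adjusted p = 1.21e-05). Leaving out WT replicate 2, 3 or 4 or SOD1G86R replicate 1 or 2 in turn ended the call, with edgeR adjusted p between 0.0102 and 0.0139. The 2 other genes of these 3, Myof and Cavin1, had log2 fold changes that missed the threshold with all mice. Myof, a dysferlin relative, had 3.46 to 4.47 CPM in WT and 8.77, 5.98, 5.63, 4.48 and 8.72 CPM in SOD1G86R replicates 1 to 5, with replicate 4 just above the highest WT mouse. The fold change on the log2 scale was 0.74 with all mice (SE 0.18, edgeR adjusted p = 0.0334) and 0.85 without replicate 4 (SE 0.15, edgeR adjusted p = 0.00288). Cavin1, a coat protein of caveolae, had 18.6 to 24.6 CPM in WT and 29, 32.3, 26.3, 24.5 and 31.1 CPM in SOD1G86R replicates 1 to 5, where replicate 4 alone overlapped WT. Its log2 fold change was 0.45 (SE 0.10, edgeR adjusted p = 0.0181), and 0.50 without replicate 4 (SE 0.09, edgeR adjusted p = 0.00388). Genes of the ESCRT machinery, like Myof and Cavin1 named after their values were seen, had log2 fold changes with all mice of 0.04 for Chmp4b, -0.01 for Pdcd6ip, -0.08 for Vps4a and 0.03 for Vps4b.

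The genes whose pattern was most like that of Anxa2 across all 10 mice, by Pearson r of log2 CPM, were 1500005C15Rik (0.973), Sod1 (0.965), Gm8566 (0.962), Slc1a4 (0.954) and Glipr1 (0.952). Sod1 carries the transgene, and Gm8566 is a pseudogene close to it. Across the 9 mice without SOD1G86R replicate 4 they were Ddx58 (0.991), Eif2ak2 (0.989), Parp9 (0.989), Cxcl10 (0.988) and Ccl4 (0.987), of which the first 4 are induced by interferon. The points share the difference between the genotypes, so that any gene that differs between them scores high. Among the members, r with Anxa3 over the 10 mice was 0.96 for S100a11, 0.92 for S100a6, 0.92 for S100a10 and 0.84 for Anxa2, and -0.08 for Anxa1. For Anxa1, whose likeness was looked up after its values were seen, the most alike genes over the 10 mice were Cxcr2 (0.957) and Camp (0.941), a chemokine receptor gene and an antimicrobial peptide gene of neutrophils.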

How the data were processed

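RNA of the lumbar spinal cord of 5 WT and 5 SOD1G86R mice was sequenced, 1 library per mouse. Reads had been aligned by the authors to mm10 (TopHat2 2.0.14) and counted per gene (HTSeq 0.6.1), as the methods and the submitters' processing notes give. The deposited values are raw counts for 32506 genes, 32247 of them matched to a symbol, with library kit and strand setting not given in the sources used here.

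Counts were analysed with R 4.3.3 and edgeR 4.0.16 (filterByExpr, TMM, robust quasi-likelihood F test, p adjusted by Benjamini and Hochberg over 16974 genes, threshold 0.01), on genotype alone. DESeq2 1.42.0 and limma voom 3.58.1 were alternatives, with other scalings, filters and thresholds, the replicate number as a block, and each mouse left out in turn. The standard error of a fold change was derived from the F statistic. The fits were tested on simulated counts with the same relative spread for all genes and no outlying mouse. That test does not cover a case like SOD1G86R replicate 4. For ratios of 3 pairs an exact permutation test ran over the 252 assignments of mice (smallest p 0.00794).

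The members and gene lists were chosen with earlier results of these data known. The text names all members, the tested genes of both families, called partner and repair genes (at most 4 per list) and, for a called member, the 5 genes of highest r. Positions and exon lengths are from GENCODE M21 (GRCm38) and promoters from RefSeq (GRCm38.p6). Replicates are separate mice, and no 2 libraries were duplicates, the lowest chi-square per gene over 45 pairs being 10.4. Depth limits the precision of the low genes, where Anxa1 had 58 to 296 counts per library. Lipid measurements and protein sequences were not used here.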

Additional observations from a re-analysis of the deposited data

Results flagged for a closer look

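Among 26 groups of 5 values examined by Dixon's ratio, 3 held a mouse far from the others, where chance gives about 1 group in 20. Anxa1 was at 1.80 CPM in WT replicate 4, against 4.77 to 6.42 CPM in the other WT mice, and this mouse also had the lowest summed blood myeloid markers, at 5.64 CPM. Anxa3 was at 12.7 CPM in SOD1G86R replicate 4, against 35.6 to 48.2 CPM in its group. Anxa11 was at 8.79 CPM in SOD1G86R replicate 4, against 8.11 to 8.20 CPM in its group, so that the gap is small in size and stands out because the other 4 mice lay close together. SOD1G86R replicate 4 is the mouse with 66.6 CPM of summed sensory ganglion markers and 487 CPM of summed microglial markers. The part of either in these 3 levels was not tested.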

How the results depend on the processing

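Over 22 alternatives Anxa2 kept its call and its direction, with log2 fold changes of 0.57 to 0.64 and an adjusted p of at most 0.0011. The count of members called higher was 4 with DESeq2, also with a normal prior on fold changes, 2 in edgeR without robust estimation, 3 at an adjusted p under 0.05, 1 to 5 with a mouse left out and 5 without both number 4 mice, an alternative chosen after seeing the data. Over all genes tested, the share called higher was 0.866% in the main fit, 3.82% with DESeq2 and 4.55% without SOD1G86R replicate 4. Members without overlap numbered 3 to 6 with a mouse left out and 6 without both number 4 mice. SOD1G86R mice lay above all WT mice for 3.09% of all genes in the main fit and 7.52% without SOD1G86R replicate 4. The shares in the other settings were not counted, so counts there are not set against all genes. Other annexin and S100 genes called numbered 1 with DESeq2 (either form), at an adjusted p under 0.05 and without both number 4 mice, each time S100a4, and 0 to 1 with a mouse left out. Partner and repair genes called numbered 2 without the filter, 6 with DESeq2 (either form), 2 without robust estimation, 5 at an adjusted p under 0.05, 5 without both number 4 mice and 0 to 6 with a mouse left out. With a mouse left out the log2 ratio differences were -0.30 to -0.15 for S100a10 to Anxa2, 0.77 to 1.48 for S100a11 to Anxa1 and 0.61 to 1.03 for S100a6 to Anxa11.

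Directions turned for genes that were never called. With a mouse left out the log2 fold change ran from -0.20 to 0.15 for Anxa1, -0.12 to 0.15 for S100a7a, -0.51 to 0.11 for S100a8, -0.57 to 0.04 for S100a9, -0.03 to 0.15 for S100a16 and -0.06 to 0.07 for S100pbp, and it was -0.35 for Anxa1 without both number 4 mice. Of 220 alternative values of the members, 198 kept direction and side of the threshold, 17 passed it in addition and 5, all of Anxa1, turned. The cause was not tested. No pairing by replicate number was seen, with correlations of -0.37 to 0.26 between same-numbered mice and 1 of 5 mice closest to its own number. With 5 mice per group this check cannot exclude a pairing. The fit with the replicate block called 1 member higher, as without it, and the paired exact sign-flip test gave p = 0.312, 0.312 and 0.125 for the ratio differences of -0.24, 1.03 and 0.76 (smallest possible p 0.0625). Among tested genes of both families depth limits S100a3 (6 to 25 counts per library), S100a7a (10 to 27) and Anxa9 (14 to 43) most, and among the members Anxa1.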
